A study of Rattus norvegicus with 24 samples.

Results

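Solute carriers are membrane proteins that move small solutes such as amino acids, organic acids, sugars, metals and ions across the plasma membrane or between the compartments of a cell. Most work as coupled transporters or exchangers, and many use the sodium gradient that the sodium-potassium pump builds, so that a cell's set of carriers sets which nutrients it can take up and which products it can release. In growth plate cartilage, which has no blood vessels, chondrocytes first rest, then divide in columns and then enlarge and mineralise their matrix, and solutes reach them by diffusion through the matrix. The genes described here are all those whose single symbol on the array platform begins with Slc, a number, the letter a and a number, or with Slco and a number, with the phosphate carriers Slc20a1 and Slc20a2 left out. Of 285 such genes, 179 were kept, out of 10539 genes with 1 symbol that were tested by the same rule. For each gene the probe set with the highest mean log2(signal + 16) over the 24 arrays was taken, and the gene was kept where that probe set was above the array's own median in 4 or more arrays.

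The study collected cartilage by hand microdissection from the proximal tibiae of 1-week-old rats, from 60 µm frozen sections, and measured total RNA on Affymetrix arrays. There were 4 arrays of epiphyseal cartilage (animals 1, 2, 4 and 5) and 5 each of the resting zone, the proliferative zone, the transition zone between proliferation and hypertrophy and the hypertrophic zone (animals 1 to 5), with no treatment and no castration in any group. Male rats are named in the labels of 3 zones, the resting, the proliferative and the hypertrophic one, whereas the labels of epiphyseal cartilage and the transition zone use another wording and give no sex. Any batch that goes with this wording cannot be told apart from zone in comparisons that cross it. Comparisons of the proliferative with the resting zone and of the hypertrophic with the proliferative zone lie within the first wording. Values are MAS5 signals, which Affymetrix software summarises from each probe set, and the 2% trimmed mean of every array lay between 500.1 and 500.2 with array medians of 135.3 to 244.6. A signal is not compared here between genes, because probe sets differ in brightness. In such pieces of tissue, fewer cells of a type and less RNA per cell cannot be told apart.

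Of the kept genes, 91 were above the array median in all 24 arrays. At the edge of the rule, the 8 genes that passed it in exactly 4 arrays had a mean log2(signal + 16) of 6.86 to 7.07, and the 5 genes that passed it in 3 arrays and were left out had 6.56 to 7.10. Among the 106 genes left out, Slco3a1 and Slc2a4 had another probe set that would have passed. The kept genes Slc4a1ap and Slc7a6os carry a carrier's name only because they bind to or lie opposite a carrier gene and are not transporters themselves, and neither differed across zones.

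Slc13a5, Slco2b1, Slc39a8 and Slc38a1 are the members on which the description turns, and the 250 bases before their transcription starts are shown. The first 3 rose in both steps from the proliferative to the hypertrophic zone, while the fourth was highest in epiphyseal cartilage. The sequences are those of RefSeq on GRCr8, printed on the gene's strand, at chr10:57388849-57389098 (minus strand) for Slc13a5, chr1:163408066-163408315 (minus) for Slco2b1, chr2:226929941-226930190 (plus) for Slc39a8 and chr7:129681402-129681651 (minus) for Slc38a1. Capitals mark a match to 1 of 3 motifs searched on both strands.
Slc13a5: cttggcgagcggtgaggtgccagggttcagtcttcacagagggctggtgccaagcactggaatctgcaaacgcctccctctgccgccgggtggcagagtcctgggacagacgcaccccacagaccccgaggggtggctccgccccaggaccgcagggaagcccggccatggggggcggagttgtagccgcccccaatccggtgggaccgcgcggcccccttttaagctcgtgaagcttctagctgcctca
Slco2b1: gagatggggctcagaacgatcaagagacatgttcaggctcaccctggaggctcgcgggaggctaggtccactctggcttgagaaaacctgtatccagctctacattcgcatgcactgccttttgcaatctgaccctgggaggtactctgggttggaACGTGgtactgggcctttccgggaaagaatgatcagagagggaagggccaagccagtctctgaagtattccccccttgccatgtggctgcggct
Slc39a8: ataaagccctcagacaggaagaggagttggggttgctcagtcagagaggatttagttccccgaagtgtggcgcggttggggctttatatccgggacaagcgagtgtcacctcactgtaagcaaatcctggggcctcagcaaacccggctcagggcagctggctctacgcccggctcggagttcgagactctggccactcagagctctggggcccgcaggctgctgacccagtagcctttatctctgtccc
Slc38a1: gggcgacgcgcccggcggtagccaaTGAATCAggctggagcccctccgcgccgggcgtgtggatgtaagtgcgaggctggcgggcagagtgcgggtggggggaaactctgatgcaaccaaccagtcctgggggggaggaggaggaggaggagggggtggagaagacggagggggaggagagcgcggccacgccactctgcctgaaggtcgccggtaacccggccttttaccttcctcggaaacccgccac
The motifs were the core of the RUNX site (TGTGGT), a loose AP-1 pattern with any base in the middle (TGANTCA) and 1 form of the core of the hypoxia response element (ACGTG). Other forms of these sites were not searched. The Slco2b1 stretch held 1 hypoxia core at position -94 from the start. The Slc38a1 stretch held 1 match to the loose AP-1 pattern, with A as the middle base, at position -225. No match to the 3 motifs was found in the windows of Slc13a5 and Slc39a8. Of 27457 RefSeq promoters of this length, 14.1% held the RUNX core, 6.36% the loose AP-1 pattern and 16.9% the hypoxia core. For 155 of the 179 carriers a promoter was matched, and the shares were 10.3%, 6.45% and 26.5%. A match describes letters, not a bound site.

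Across the 5 zones, 100 of the 179 carriers (55.9%) passed limma's F test at an adjusted p below 0.05, beside 60.6% of all 10539 genes, so the share of carriers that varied was near that of the array. Among the carriers that passed, the highest mean lay in the hypertrophic zone for 38%, in the transition zone for 29%, in the resting zone for 13%, in the epiphyseal cartilage for 11% and in the proliferative zone for 9%. The same shares over all genes that passed were 26.9%, 20.6%, 21.1%, 12.2% and 19.2%. The typical carrier varied little between animals of a zone, with a median SD of 0.34 to 0.43 on the log2 scale, beside 0.31 to 0.39 over all genes.

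In pairwise comparisons a gene was called when its adjusted p was below 0.05 over all tested probe sets and its fold change was at least 2. Between the resting zone and the epiphyseal cartilage, 4 carriers were called, all lower in the resting zone, which is 2.23% of the members beside 1.68% of all genes (of which 0.626% were higher and 1.05% lower). Between the proliferative and the resting zone, 13 were called (7.26% beside 6.13%), 4 higher and 9 lower (2.23% and 5.03% of the members beside 2.15% and 3.98% of all genes). Between the transition and the proliferative zone, 9 were called (5.03% beside 8.47%), 7 higher and 2 lower (3.91% and 1.12% beside 3.39% and 5.09%). Between the hypertrophic and the transition zone, 21 were called (11.7% beside 9.87%), 16 higher and 5 lower (8.94% and 2.79% beside 7.44% and 2.43%). Between the hypertrophic and the proliferative zone, 37 were called (20.7% beside 19.3%), 26 higher and 11 lower (14.5% and 6.15% beside 10.3% and 8.98%). The share of carriers called lower in the transition than in the proliferative zone was below that of all genes, and no test of these shares was made. The comparisons share zones, so they are not independent of each other.

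Over all members the median log2 change was 0.034 from epiphyseal cartilage to the resting zone and 0.017 from the resting to the proliferative zone, beside 0.016 and 0.021 over all genes. It was 0.148 from the proliferative to the transition zone, beside -0.031, and -0.012 from the transition to the hypertrophic zone, beside -0.007. From the proliferative to the hypertrophic zone it was 0.224, beside -0.04. The split of calls depended on the scaling of the arrays: with all arrays scaled to one median, the share of calls that were higher went from 30.8% to 50% in the proliferative zone against the resting zone, from 77.8% to 89.5% in the transition zone against the proliferative zone, from 76.2% to 44% in the hypertrophic zone against the transition zone, and from 70.3% to 60.5% in the hypertrophic zone against the proliferative zone. In these 4 comparisons the median change of the tested probe sets went, with that scaling, from -0.019 to 0.079, -0.065 to 0.09, 0.016 to -0.24 and -0.049 to -0.152. Quantile normalization gave 62.5% higher in the hypertrophic zone against the transition zone.

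Of the 179 carriers, 50 were called in at least 1 comparison (27.9%, beside 26.3% of all genes), with 84 calls in all. The arrays of the zones compared did not overlap in 67 of these calls (79.8%, beside 74.7% of the 4786 calls over all genes). In 83 of them each animal moved the same way (98.8%, beside 93.3% of the calls over all genes), the exception being Slc5a3 between the hypertrophic and the proliferative zone, with 4 of 5 animals. Of the 129 carriers never called, 51 passed the F test without meeting both criteria in any of the 5 comparisons. The plot of all called carriers by zone shows where each was high.

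**Figure D1:**
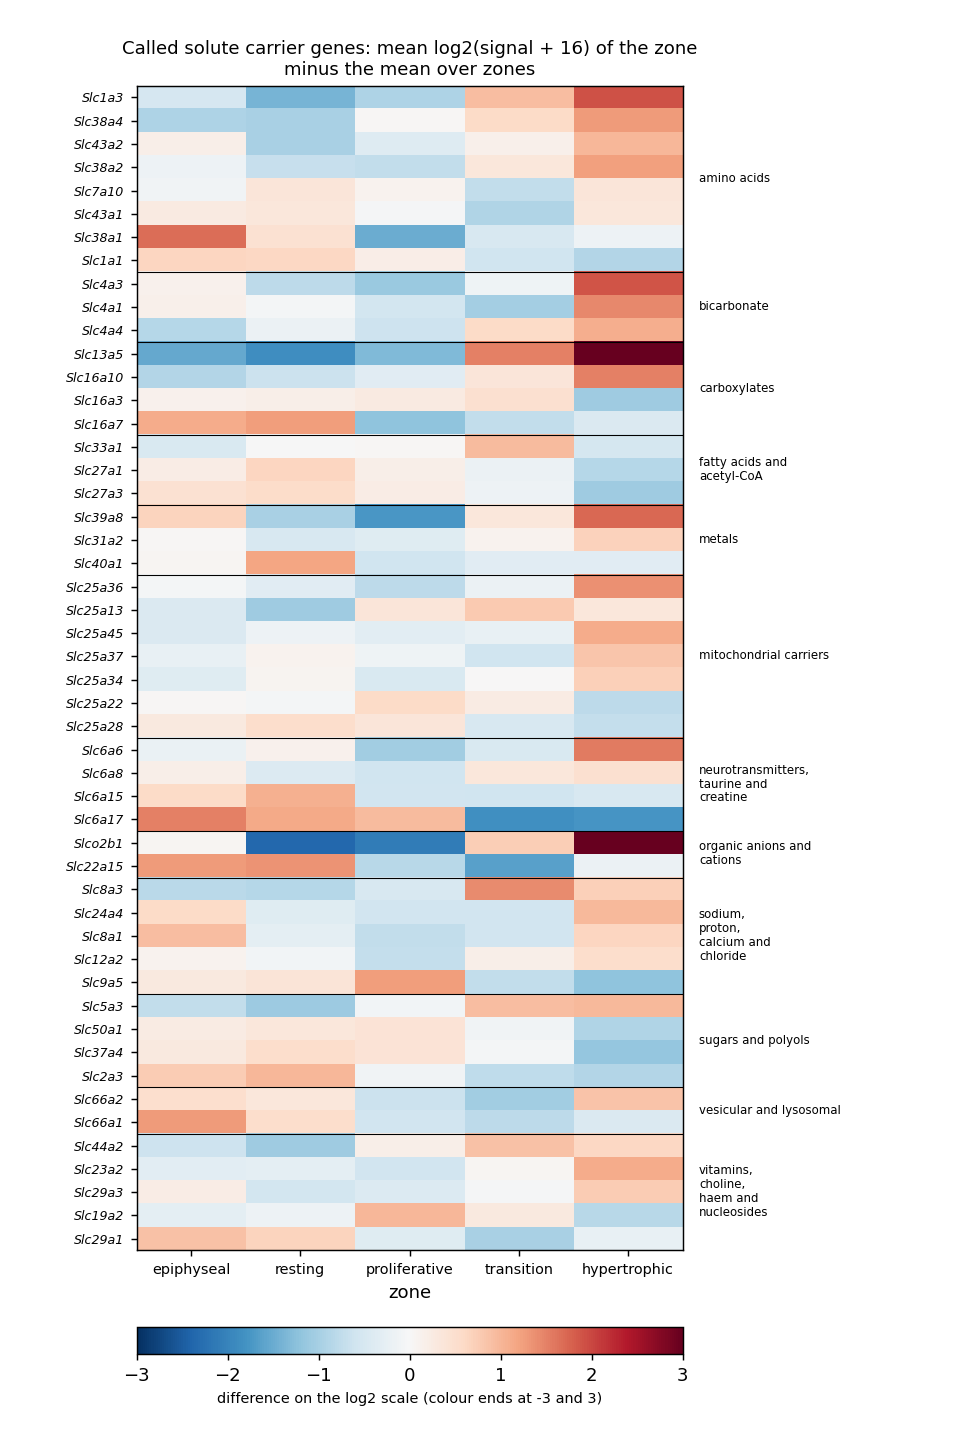
Mean log2(signal + 16) of each of the 50 called carriers (rows) in each of the 5 zones (columns), shown as the difference from the gene's own mean over the zones, with 1 colour scale for all. Slc13a5, Slco2b1 and Slc39a8 are high in the hypertrophic zone, and Slc38a1, Slc22a15 and Slc16a7 are high in epiphyseal and resting cartilage.

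Slc13a5, the sodium-coupled carrier that imports citrate, was low in the first 3 zones and rose in 2 steps. Its signals were 1218.9, 704.8, 1007.8 and 1286.9 in epiphyseal cartilage, 867.9, 532.2, 625.2, 887.4 and 1383.8 in the resting zone and 1327.7, 1069.8, 1041.5, 1228.9 and 1358.3 in the proliferative zone. They were 9814.3, 9895.6, 6101.7, 9391.3 and 8231.4 in the transition zone and 39828.8, 31895.9, 18682.9, 24749.2 and 30865 in the hypertrophic zone. The lowest transition array stood above every array of the first 3 zones, and the lowest hypertrophic array above every transition array. On the log2 scale Slc13a5 rose by 2.82 ± 0.17 (SE) from the proliferative to the transition zone (7.06-fold, limma adjusted p = 3.81e-11) and by 1.72 ± 0.17 from there to the hypertrophic zone (3.30-fold, adjusted p = 8.66e-08). From the proliferative to the hypertrophic zone, within 1 wording of the labels, the rise was 4.54 ± 0.17 (23.3-fold, adjusted p = 1.66e-15). Epiphyseal and resting cartilage did not differ at this threshold (-0.23 ± 0.18, adjusted p = 0.64).

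Slco2b1, a carrier of organic anions that include steroid sulfates, rose more steeply, with more spread between animals. Its signals were 75.4, 6.6, 187.2, 139.6 and 168.8 in the resting zone and 71.2, 90.5, 57.4, 175.9 and 211.9 in the proliferative zone. In the transition zone they were 740.9, 1520, 511, 1268.7 and 725.2, and in the hypertrophic zone 5971.9, 14096.8, 3778, 5362.1 and 8727.8. Again no array of the transition zone fell among those of the proliferative zone, and none of the hypertrophic zone among those of the transition zone. The log2 rise was 2.85 ± 0.46 into the transition zone (adjusted p = 5.83e-05), 2.93 ± 0.46 from there into the hypertrophic zone (adjusted p = 4.49e-05) and 5.78 ± 0.46 over both (55.1-fold, adjusted p = 3.94e-10). A second, dimmer probe set of Slco2b1 did not follow it, with log2 changes of -0.30 (adjusted p = 0.747), 1.09 (adjusted p = 0.143) and 0.79 (adjusted p = 0.25) in these 3 comparisons, so that the size of the rise rests on 1 probe set. On the mean of its probe sets the rise over both steps was 3.29 (adjusted p = 1.66e-07).

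Slco2b1 was also higher in epiphyseal cartilage, at 738.6, 568.9, 541.9 and 363.6, than in any resting array. The resting zone was lower by a log2 change of -2.32 ± 0.49 (limma adjusted p = 0.00732). That call did not hold without animal 1 (-2.08, adjusted p = 0.0985), with epiphyseal animals 1 and 2 both left out (-1.75, adjusted p = 0.228) or on the mean of its probe sets (-1.04, adjusted p = 0.193). Those epiphyseal arrays carried summed osteoclast and macrophage marker signals of 64658 and 30525, beside 3263 and 2416 in animals 4 and 5, and in the same animals the Slco2b1 signal was 738.6 and 568.9 beside 541.9 and 363.6. None of the 6 tested markers of that list was called between resting and epiphyseal cartilage. All 6 were lower in the resting zone, but with wide errors, by log2 changes from -1.77 ± 0.79 (Mmp9) to -0.78 ± 0.44 (Csf1r). The hypertrophic chondrocyte markers were summed to 44082, 42048, 14342 and 6080 in the 4 epiphyseal arrays, beside 1971 to 20216 in the resting zone. Of these, Col10a1 (-3.38 ± 0.5, adjusted p = 0.000183) and Alpl (-3.13 ± 0.36, adjusted p = 5.34e-06) were called lower in resting than in epiphyseal cartilage, as was Slc39a8, described next. Mmp13 (-1.58 ± 0.69), Ihh (-0.24 ± 0.43) and Panx3 (0.23 ± 0.3) of the same list were not called. The part of the cells of both marker lists in the Slco2b1 and Slc39a8 results was not tested.

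Slc39a8, which imports zinc and manganese, followed the same course with smaller steps. Its signals were 296.1, 102.4, 185.7, 13.6 and 283.4 in the proliferative zone, 901.7, 497.7, 523.3, 435 and 798.4 in the transition zone and 1083.5, 1458.7, 1399.8, 2855.8 and 1710.2 in the hypertrophic zone. The 3 zones did not overlap. The log2 rise was 2.09 ± 0.41 into the transition zone (adjusted p = 0.000537) and 3.48 ± 0.41 from the proliferative to the hypertrophic zone (11.2-fold, adjusted p = 2.82e-07; 2.70 without animal 4). The last step, 1.39 ± 0.41 (adjusted p = 0.0155), was lost without the hypertrophic array of animal 4, the highest of the group (1.04, adjusted p = 0.0608), without animal 2 (1.35, adjusted p = 0.0745) and with arrays scaled to one median (1.12, adjusted p = 0.0524).

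Resting cartilage held less Slc39a8 signal, at 213.9 to 269.3, than epiphyseal cartilage, at 654.3, 710.4, 1096.3 and 668.9. The log2 difference was -1.62 ± 0.44 (limma adjusted p = 0.0467). The groups did not overlap, but the call lay at the threshold and was lost without any of animals 1, 2, 3 or 5 (adjusted p of 0.0987, 0.23, 0.104 and 0.104). It was also lost with epiphyseal animals 1 and 2 both left out and without the transition array of animal 5. Arrays scaled to one median, no filter, no variance trend and a pseudocount of 1 removed it too, so that 10 of 20 alternatives lost it. Slc13a5, Slco2b1 and Slc39a8 were the 3 carriers called higher in both steps, into the transition zone and from there into the hypertrophic zone.

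Slc38a1, a sodium-coupled carrier of glutamine and other neutral amino acids, was highest in epiphyseal cartilage and lowest in the proliferative zone. Its signals were 2188.3, 1916.7, 1891.1 and 1635.6 in epiphyseal cartilage, 667.4, 713.7, 688.8, 1034 and 960.8 in the resting zone and 240.7, 184.9, 164.3, 244.9 and 170.4 in the proliferative zone. They then came to 382.8, 489.9, 424.6, 398.7 and 370.3 in the transition zone and 532.8, 612, 582.7, 546.6 and 367.2 in the hypertrophic zone. No epiphyseal array overlapped a resting array, and no resting array a proliferative array. The log2 difference was -1.21 ± 0.19 from epiphyseal to resting cartilage (limma adjusted p = 0.000303) and -1.93 ± 0.17 from the resting to the proliferative zone (3.81-fold lower, adjusted p = 1.93e-08). The change from the proliferative to the transition zone passed the test but was just under 2-fold (1.99-fold, adjusted p = 0.000169), and the hypertrophic zone was 1.32 ± 0.17 above the proliferative zone (adjusted p = 1.53e-06). Hypertrophic and transition arrays overlapped and did not differ at this threshold (0.33 ± 0.17, adjusted p = 0.188). A second probe set of Slc38a1 gave -0.81 (adjusted p = 0.0717) from epiphyseal to resting cartilage and -1.38 (adjusted p = 7.62e-05) into the proliferative zone. It gave 1.23 (adjusted p = 0.000217) into the transition zone and 1.64 (adjusted p = 1.89e-06) from the proliferative to the hypertrophic zone. The 3 calls of Slc38a1 held on the mean of its probe sets.

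**Figure D2:**
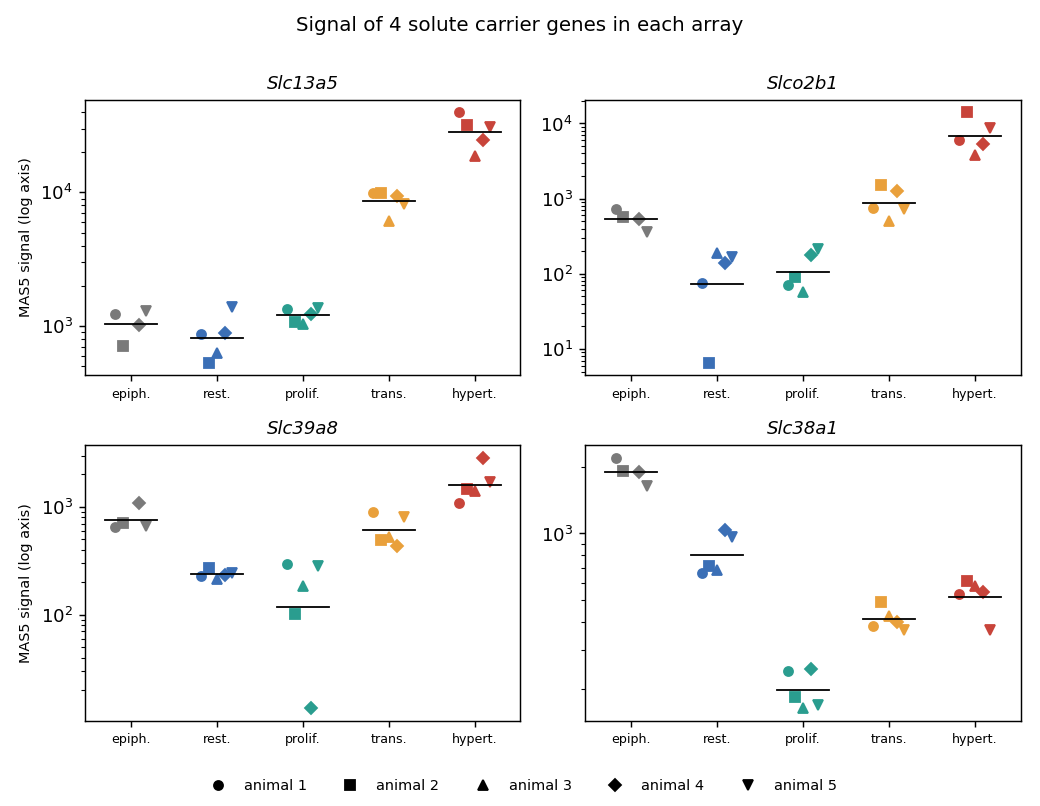
MAS5 signal (log axis) of Slc13a5, Slco2b1, Slc39a8 and Slc38a1 in each of the 24 arrays by zone, with 1 symbol per animal and a black line at the geometric mean of the zone. Slc13a5 lies between 18682.9 and 39828.8 in the hypertrophic zone and at most at 1383.8 in the first 3 zones, whereas Slc38a1 is highest in epiphyseal cartilage and lowest in the proliferative zone.

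Among the other carboxylate carriers, which include the monocarboxylate carriers that move lactate and pyruvate with protons, Slc16a3 was low in the hypertrophic zone and Slc16a7 in the proliferative zone. Of the 7 members of this group, 4 passed the F test and 3 were never called. Slc16a3, the carrier that exports lactate from glycolytic cells, had signals of 17315, 10599.2, 10912.9, 13556.9 and 16500.5 in the transition zone and 7015.2, 3863.7, 6827.5, 3091.8 and 3807.1 in the hypertrophic zone. The zones did not overlap and the log2 difference was -1.53 ± 0.25 (limma adjusted p = 7.87e-05). Against the proliferative zone it was -1.34 ± 0.25 (adjusted p = 0.000139), and the upper 4 zones had like means of 11560, 11260, 11970 and 13780. Slc16a7, an importer of lactate and pyruvate, had signals of 374.5, 321.5, 485.7, 560.2 and 300.9 in the resting zone and 41.6, 59.4, 59.1, 46.4 and 105.8 in the proliferative zone. It was 5.46-fold lower there (log2 -2.45 ± 0.44, adjusted p = 0.00029), with no overlap. Slc16a10, which carries aromatic amino acids and thyroid hormone, was dim in the proliferative zone (22.4 to 100.5) and reached 59.5 to 408.8 in the hypertrophic zone (log2 1.84 ± 0.57, adjusted p = 0.0133), a call that was lost without animal 2 (1.47, adjusted p = 0.102). Slc16a10 was above the array median in only 5 arrays, with its highest mean in the hypertrophic zone, so that the filter may have kept it through that zone.

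The amino acid carriers held 26 members, of which 17 passed the F test and 18 were never called. In the hypertrophic zone 5 of them were higher than in the proliferative zone and 1 was lower, with a median log2 change of 0.41 over the group. Slc1a3, a sodium-coupled importer of glutamate and aspartate, had signals of 406.3, 635, 592.2, 240.4 and 361.1 in the proliferative zone, 1715.8, 2166.7, 1162.9, 1228.6 and 1692.6 in the transition zone and 3750, 3611.3, 3270.7, 2311.2 and 2712.8 in the hypertrophic zone. Its 3 zones did not overlap, and it rose by 1.84 ± 0.18 into the transition zone (limma adjusted p = 5.98e-08) and by 2.82 ± 0.18 from the proliferative to the hypertrophic zone (7.07-fold, adjusted p = 9.25e-12). A second probe set of Slc1a3 gave 0.28 (adjusted p = 0.752) for the first step and 1.84 (adjusted p = 0.00563) over both, and on the mean of both the first step was 1.06 (adjusted p = 0.00446). Its relative Slc1a1, another glutamate importer, went from 440.4 to 681.4 in the proliferative zone down to 209.8 to 379.8 in the hypertrophic zone (log2 -1.06 ± 0.18, adjusted p = 3.91e-05). Without animal 4 this difference was -0.99, under 2-fold.

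Slc38a2, a carrier of small neutral amino acids that is known to answer amino acid shortage, rose beside Slc1a3. Its signals were 7611.2, 7193.5, 7183.2, 5157.9 and 5135.7 in the proliferative zone, 14814.5, 15302, 11243.1, 13611.7 and 13243.8 in the transition zone and 31501.9, 27987.9, 20976.1, 20882.1 and 25350.7 in the hypertrophic zone. The 3 zones did not overlap, with a log2 rise of 1.09 ± 0.14 into the transition zone (limma adjusted p = 4.58e-06; 0.95 after quantile normalization) and of 1.97 ± 0.14 from the proliferative to the hypertrophic zone (adjusted p = 9.02e-11). Slc38a4, of the same family, was at 700.2 to 1489.8 in the proliferative and 2031.9 to 3195.2 in the hypertrophic zone (1.24 ± 0.16, adjusted p = 1.08e-06). Slc43a2, which carries branched-chain and aromatic amino acids, went from a mean of 233.4 to 639.4 between the same zones (1.38 ± 0.28, adjusted p = 0.000325), and its lower level in the resting zone than in epiphyseal cartilage (-1.15 ± 0.3, adjusted p = 0.0358) was lost without animal 1, 2, 3 or 5 and with epiphyseal animals 1 and 2 both left out (-0.58, adjusted p = 0.603). A second probe set of Slc43a2 gave 0.64 (adjusted p = 0.12) and -0.88 (adjusted p = 0.211) in these 2 comparisons. The relatives Slc43a1 and Slc7a10, named after their values were seen, were called higher in the hypertrophic than in the transition zone with overlapping arrays. The call of Slc43a1 was lost in 3 of 19 alternatives, and its highest mean lay in the resting zone. That of Slc7a10 was lost in 13 of 19. Slc7a10 did not pass the F test (adjusted p = 0.0882) and was above the array median in only 4 arrays, with its highest mean in the hypertrophic zone.

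Of the 10 carriers of organic anions and cations, 4 passed the F test and 8 were never called, so that Slco2b1 and Slc22a15 were the called ones. Slc22a15, of the family that carries organic cations and zwitterions, was high in epiphyseal and resting cartilage. Its resting signals were 2026, 1739.3, 1352.4, 1916.1 and 1684, and its proliferative signals were 270, 298.1, 313.8, 624.9 and 424.2. The groups did not overlap and the proliferative zone was 4.54-fold lower (log2 -2.18 ± 0.24, limma adjusted p = 3.52e-07). From the transition to the hypertrophic zone it rose again by 1.44 ± 0.24 (adjusted p = 9.57e-05), from 95.2 to 340.7 up to 333.4 to 1067, where the highest transition array passed the lowest hypertrophic array.

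Carriers of metals made up 24 members, of which 12 passed the F test and 21 were never called. Slc40a1, the exporter of iron, was highest in the resting zone, with signals of 2279.9, 2314.1, 2136, 1435.5 and 941.1. In the proliferative zone it was at 340.3, 421.9, 474.1, 580.9 and 713.9, below every resting array. The log2 difference was -1.78 ± 0.3 (3.44-fold lower, limma adjusted p = 0.00018). Slc30a7, which moves zinc into the Golgi, and Slc31a1, the importer of copper, passed the F test (adjusted p = 6.03e-08 and 2.75e-05) and had their highest means in the transition zone, 1945 and 3511, with steps under 2-fold. Slc31a2, a copper carrier named after its values were seen, was called higher in the hypertrophic than in the proliferative zone (1.05 ± 0.33, adjusted p = 0.0147), and the call was lost without animal 3 (0.84, adjusted p = 0.0918), without animal 4 (0.90, under 2-fold) or the hypertrophic array of animal 4 (0.81, adjusted p = 0.0651), and with arrays scaled to one median (0.95).

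Of 6 bicarbonate carriers, 3 were higher in the hypertrophic than in the proliferative zone and none was lower, with a median log2 change of 1.05, where 10.3% of all genes were called higher and the median over all genes was -0.04. One of the 3 is Slc4a1, whose call did not hold on the mean of its probe sets (0.91). Slc4a3, which exchanges chloride for bicarbonate, had signals of 692.9, 823.6, 423, 1573.7 and 933.3 in the proliferative zone, 2017.7, 2238, 1214.8, 2734.6 and 758.1 in the transition zone and 5788.4, 5166.4, 5095.8, 7985.4 and 10649.9 in the hypertrophic zone. The hypertrophic arrays lay above all others. The log2 rise was 2.02 ± 0.28 from the transition zone (limma adjusted p = 1.1e-05) and 3.00 ± 0.28 from the proliferative zone (8.03-fold, adjusted p = 7.57e-09). Slc4a4, which carries sodium with bicarbonate, rose by 1.22 ± 0.24 into the transition zone (adjusted p = 0.000702, arrays overlapping) and by 1.73 ± 0.24 from the proliferative to the hypertrophic zone (adjusted p = 3.95e-06), from 80.3 to 281.1 up to 342.5 to 734.9.

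Slc4a1, the anion exchanger of red blood cells, was called higher in the hypertrophic than in the transition zone (2.46 ± 0.35, limma adjusted p = 1.49e-05) and than in the proliferative zone (2.00 ± 0.35, adjusted p = 6.66e-05, arrays overlapping). Its hypertrophic signals were 595.6, 230.2, 174.7, 570.8 and 1591.6, beside 150, 103.6, 20.8, 47.5 and 99.9 in the transition zone. Slc25a37, the mitochondrial iron importer of red cell precursors, was at 1133.6, 1016.2, 602.2, 1765.9 and 4613 in the hypertrophic and 568.3, 610.5, 524.9, 619.1 and 324.7 in the transition zone (1.43 ± 0.3, adjusted p = 0.00119), where 1 hypertrophic array lay within the transition arrays. Both were highest in the hypertrophic array of animal 5, which also had the highest summed erythroid marker signal, 30467 in a range of 9324 to 30467 in that zone beside 986 to 5313 in the transition zone. All 3 tested erythroid markers of 6 listed were called higher in the hypertrophic zone in both comparisons. The part of these cells in the result was not tested. Without animal 5 the change of Slc25a37 was 0.84, and a second probe set of Slc4a1 had changes of 0.42 and -0.18 in the 2 comparisons. The mean of its probe sets gave 1.44 and 0.91.

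Carriers of sodium, protons, calcium and chloride numbered 13, with 8 passing the F test and 8 never called. Slc12a2, which imports sodium, potassium and chloride together, had signals of 1692.7, 1692, 1728.1, 1194.7 and 1333.4 in the proliferative zone and 5250.8, 3398.1, 4415.2, 2481.6 and 3263.8 in the hypertrophic zone. The zones did not overlap (log2 1.26 ± 0.13, limma adjusted p = 2.93e-08). Slc8a3, an exchanger of sodium for calcium, was highest in the transition zone, at 1059.3, 1222.8, 1159.5, 841.3 and 1367.1 beside 328.6, 466.5, 165.3, 344.4 and 220.4 in the proliferative zone (1.90 ± 0.29, adjusted p = 2.7e-05). It was also higher in the hypertrophic than in the proliferative zone (1.19 ± 0.29, adjusted p = 0.00188), a change of 0.78 without animal 3. The related exchangers Slc8a1 and Slc24a4 rose by 1.22 ± 0.4 (adjusted p = 0.0295) and 1.54 ± 0.42 (adjusted p = 0.00943) from the transition to the hypertrophic zone, and the first of these was lost without any single animal except animal 5. The highest mean of Slc8a1 lay in epiphyseal cartilage. Both exchangers were also called higher in the hypertrophic than in the proliferative zone, in every alternative run. Slc8a1 and Slc24a4 were above the array median in only 7 and 6 arrays. The highest mean of Slc24a4 lay in the hypertrophic zone, so that the filter may have kept it through that zone. Slc9a5, which exchanges sodium for protons, went the other way, from 353.8, 315.3, 319.6, 412.2 and 464.9 in the proliferative zone to 127.7, 18.6, 52.7, 174.3 and 111.5 in the transition zone (4.00-fold lower, adjusted p = 0.00112).

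**Figure D3:**
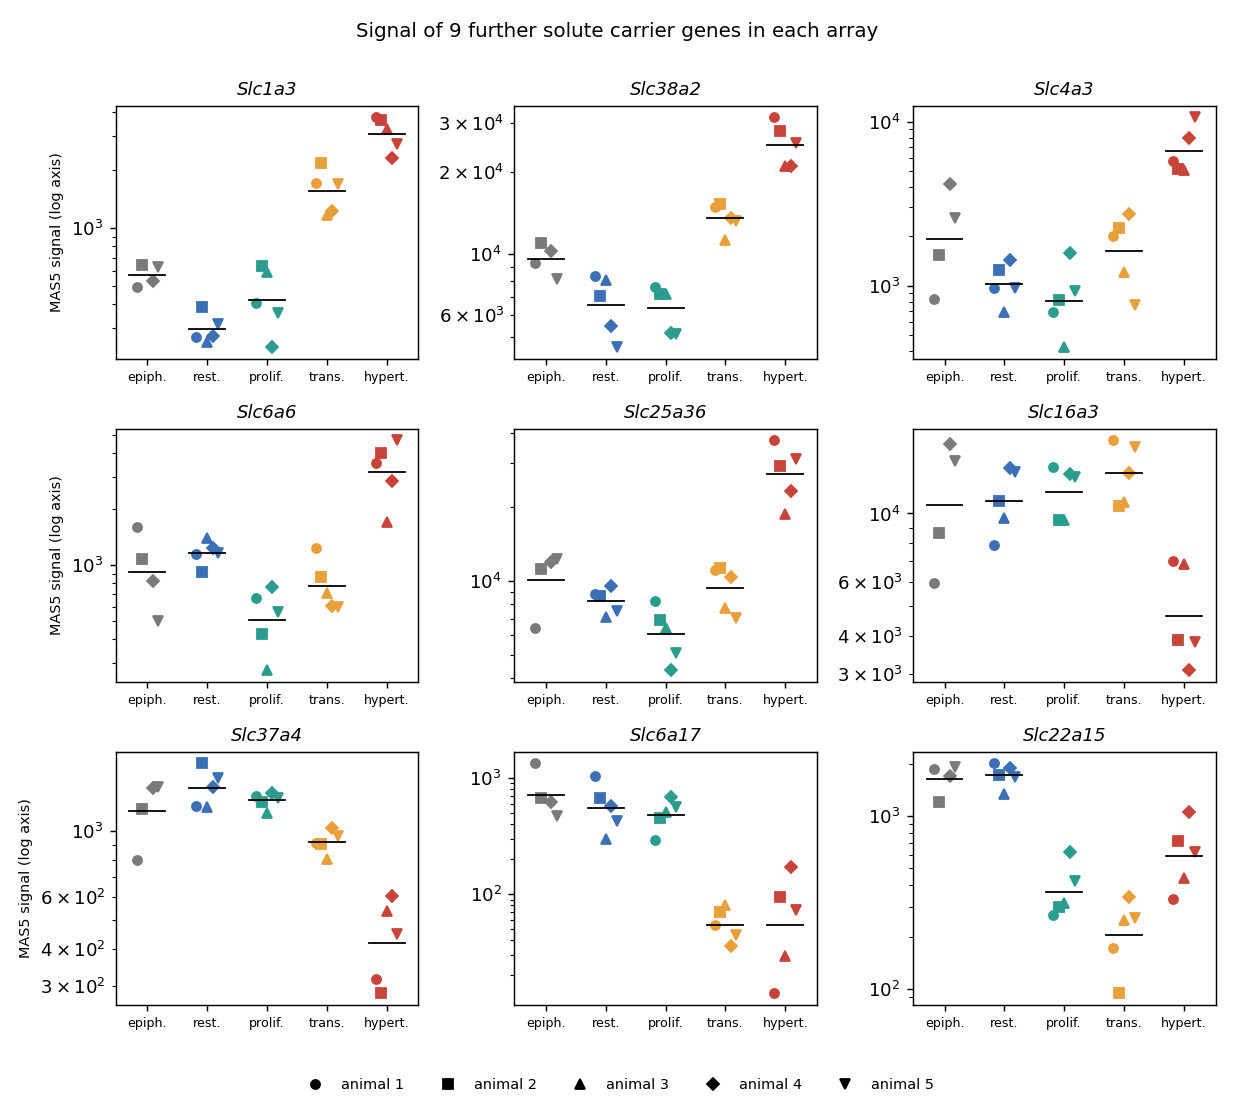
MAS5 signal (log axes that differ between panels) of 9 further carriers in each of the 24 arrays by zone, with 1 symbol per animal and a black line at the geometric mean of the zone. Slc1a3, Slc38a2, Slc4a3, Slc6a6 and Slc25a36 are highest in the hypertrophic zone, Slc16a3 and Slc37a4 are lowest there, Slc6a17 is below 200 in the transition and hypertrophic zones, and Slc22a15 is highest in epiphyseal and resting cartilage.

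Among the 9 carriers of the neurotransmitter family, which in cartilage cells include those for taurine and creatine, 5 passed the F test and 5 were never called. Slc6a6, the importer of the osmolyte taurine, had signals of 1236.9, 868.9, 709.6, 601.2 and 598.3 in the transition zone and 3554, 4002.5, 1717.1, 2858.4 and 4705.9 in the hypertrophic zone. The log2 rise was 2.02 ± 0.26 (4.06-fold, limma adjusted p = 4.15e-06) with no overlap. A second probe set of Slc6a6 had a difference of 0.86 between these zones, which did not pass the test (adjusted p = 0.133), and the mean of the probe sets gave 1.44. Its lower level in the proliferative than in the resting zone (-1.17 ± 0.26, adjusted p = 0.00271) rests on 1 probe set, since the second gave 0.86 (adjusted p = 0.17) and the mean of the probe sets -0.16 (adjusted p = 0.773), and was -0.90 without animal 3. Slc6a8, the importer of creatine, was 1.09 ± 0.14 higher in the hypertrophic than in the proliferative zone (adjusted p = 1.07e-06), or 0.97 without animal 4. A second probe set of Slc6a8 gave 0.81 (adjusted p = 0.000468). The call was also lost on the mean of the probe sets and with arrays scaled to one median.

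Slc6a17, a vesicular carrier of neutral amino acids known from neurons, was lower in the transition than in the proliferative zone. Its signals were 290.4, 453.9, 512.3, 683.7 and 565.3 in the proliferative zone and 54.7, 70.5, 80.6, 35.7 and 44.4 in the transition zone. The log2 difference was -2.81 ± 0.4 (7.00-fold lower, limma adjusted p = 1.25e-05), and the transition signals lay below the array medians. A second probe set gave -0.74 (adjusted p = 0.396), and the mean of both -1.77 (adjusted p = 0.0017). Slc6a15, a carrier of branched-chain amino acids, was lower in the proliferative zone (35.9 to 125.9) than in the resting zone (223.5 to 299.5), with a log2 difference of -1.63 ± 0.54 (adjusted p = 0.0439) that was lost without animal 1, 2, 3 or 4 (adjusted p of 0.0649, 0.146, 0.158 and 0.0763). Either other scaling, no filter, no variance trend and a pseudocount of 1 also removed this call, which was lost in 10 of 19 alternatives.

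Of the 11 carriers of sugars and polyols, 9 passed the F test and 7 were never called. Slc37a4, which carries glucose 6-phosphate into the endoplasmic reticulum, fell late. Its signals were 913.3, 902.6, 803.6, 1023.6 and 959.8 in the transition zone and 316, 283, 534.5, 604.9 and 447.6 in the hypertrophic zone (-1.10 ± 0.17, limma adjusted p = 4.14e-05), or -0.97 without animal 2. Against the proliferative zone the difference was -1.56 ± 0.17 (adjusted p = 8.89e-08). Slc50a1, a sugar carrier, fell between the same zones by a log2 difference of -1.30 ± 0.22 (adjusted p = 4.19e-05) with overlapping arrays. Slc5a3, which imports the osmolyte myo-inositol with sodium, was at 2340, 2048.2, 1857.6, 4994.3 and 2365.2 in the resting zone and 6986.2, 5243.4, 3233.9, 8077.2 and 3830.4 in the proliferative zone (1.02 ± 0.25, adjusted p = 0.00675). The call was lost without animal 1 (0.88, adjusted p = 0.0534), without animal 2 (0.94, adjusted p = 0.052), with array weights and after quantile normalization. The level of Slc5a3 in the hypertrophic zone was 1.05 ± 0.25 above the proliferative zone (adjusted p = 0.00179) in 4 of 5 animals, with 0.96, 0.98 and 0.88 without animals 1, 2 and 3. That call was also lost with arrays scaled to one median. Slc2a3, a glucose importer, was 1.09 lower on the log2 scale in the proliferative than in the resting zone (-1.09 ± 0.35, adjusted p = 0.0349), which did not hold without animal 2, 3, 4 or 5 or without the block on animals (adjusted p = 0.0807).

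The mitochondrial carriers were the largest group, with 32 members, of which 18 passed the F test and 25 were never called. Slc25a36, which carries pyrimidine nucleotides into mitochondria, had signals of 11096, 11207.6, 7743.2, 10319.4 and 7027.9 in the transition zone and 37257.7, 29281.3, 18749.1, 23260.3 and 31298.4 in the hypertrophic zone. The hypertrophic arrays lay above those of the other zones (log2 1.55 ± 0.2 from the transition zone, limma adjusted p = 3.65e-06). Slc25a13, the exchanger of aspartate for glutamate, was called once, higher in the proliferative (621 to 1169.5) than in the resting zone (226.5 to 448.3), by 1.43 ± 0.26 (adjusted p = 0.000479). A second probe set of Slc25a13 gave 0.86 (adjusted p = 0.0976). Slc25a22, a glutamate carrier, and Slc25a28, an iron importer found in most cells, were lower in the hypertrophic than in the proliferative zone, by -1.37 ± 0.22 (adjusted p = 2.76e-05) and -1.09 ± 0.16 (adjusted p = 9.42e-06) on the log2 scale, the second -0.95 without animal 4. Slc25a22 was also lower in the hypertrophic than in the transition zone (-1.03 ± 0.22, adjusted p = 0.00156), at -0.77 without animal 2 and -0.94 without animal 4. Slc25a45 rose by 1.43 ± 0.34 from the proliferative to the hypertrophic zone (adjusted p = 0.00151), and Slc25a4, which exchanges ADP for ATP, passed the F test (adjusted p = 1.56e-05) with steps under 2-fold.

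Carriers of vitamins, choline, haem and nucleosides had 15 members, of which 10 passed the F test and 10 were never called. Slc44a2, of the choline carrier family, had signals of 4041.7, 3826.1, 3230.2, 4567.7 and 4451.7 in the resting zone and 13205.2, 8852.7, 6652, 9545.1 and 10134.5 in the proliferative zone. It rose without overlap (1.24 ± 0.16, limma adjusted p = 6.07e-06) and had means of 15490 and 13180 in the next zones. Slc19a2, the thiamine importer, was highest in the proliferative zone, at 761.8, 1415.6, 1701.1, 922.5 and 1085.1, and lowest in the hypertrophic zone, at 380.9, 313.2, 383.9, 257 and 240.3 (-1.82 ± 0.24, adjusted p = 1.49e-06). Its rise from the resting zone (1.15 ± 0.24, adjusted p = 0.00147) was 0.92 without animal 3, and its fall from the transition zone (-1.11 ± 0.24, adjusted p = 0.00137) was -0.98 without animal 4. Slc23a2, which imports vitamin C, the cofactor of collagen hydroxylation, rose from 253 to 545.8 in the proliferative zone to 889.7 to 1565.4 in the hypertrophic zone (1.69 ± 0.22, adjusted p = 1.13e-06). Its step from the transition zone (1.05 ± 0.22, adjusted p = 0.00101) was 0.82 without animal 3. The call of that step was also lost with arrays scaled to one median, after quantile normalization and with a pseudocount of 64. Slc29a1, a nucleoside carrier, was lower in the proliferative than in the resting zone (-1.02 ± 0.21, adjusted p = 0.00172), at -0.86 without animal 4. This call was also lost with array weights, with arrays scaled to one median and with a pseudocount of 64.

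Carriers of fatty acids and of acetyl-CoA moved down into the hypertrophic zone where they moved. Of 5 members, 3 passed the F test and 2 were never called. Slc27a1 and Slc27a3, which import fatty acids and join them to coenzyme A, were lower in the hypertrophic than in the proliferative zone, by -1.02 ± 0.18 (limma adjusted p = 6.38e-05) and -1.29 ± 0.26 (adjusted p = 0.00034) on the log2 scale, the first -0.78 without animal 1. Slc33a1, which carries acetyl-CoA into the endoplasmic reticulum, was highest in the transition zone (750.9 to 1670.5) and lower in the hypertrophic zone (264.3 to 423.5), with a difference of -1.46 ± 0.23 (adjusted p = 4.72e-05), or -0.95 on the mean of its probe sets.

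Among 5 vesicular and lysosomal carriers, Slc66a2 rose from 10.8 to 184.3 in the transition zone to 201 to 846.8 in the hypertrophic zone (1.91 ± 0.42, limma adjusted p = 0.00176). Slc66a1, which exports basic amino acids from lysosomes, was lower in the proliferative than in the resting zone (-1.10 ± 0.33, adjusted p = 0.0241), and this was lost without animal 1, 3 or 4 (adjusted p of 0.0661, 0.119 and 0.0861). The call was also lost on the mean of its probe sets, the others of which gave -0.24 (adjusted p = 0.729) and -0.8 (adjusted p = 0.382). None of the 5 nucleotide sugar carriers, which supply the Golgi for matrix glycans, was called in the fit as described. Slc35a5 was called lower in the hypertrophic than in the transition zone without animal 4 (-1.13, adjusted p = 0.000351), without the hypertrophic array of animal 4 (-1.19), with arrays scaled to one median (-1.17) and after quantile normalization (-1.03), and than in the proliferative zone without animal 4 (-1.03). Slc35a2, the carrier of UDP-galactose, passed the F test (adjusted p = 0.00342) with its highest mean of 2849 in the transition zone. None of the 6 carriers of sulfate and other anions was called in that fit either. Slc26a2, the sulfate importer whose loss causes chondrodysplasias in man, had means of 155.6, 176.8, 230.4, 214 and 109.9 along the zones and did not pass the F test (adjusted p = 0.12). Under some alternatives Slc26a2 was called lower in the hypertrophic than in the transition zone (-1.20, adjusted p = 0.025, with arrays scaled to one median, and -1.19, adjusted p = 0.0376, after quantile normalization) and than in the proliferative zone (-1.01 and -1.04 with the same scalings, and -1.29, adjusted p = 0.0158, without animal 3). Slc13a4, another sulfate carrier, was called higher in the hypertrophic than in the proliferative zone with a pseudocount of 1 (1.07), without the hypertrophic array of animal 4 (1.23) or without animal 4 (1.18). The 2 urea carriers and the peptide carrier Slc15a4 did not pass it.

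**Figure D4:**
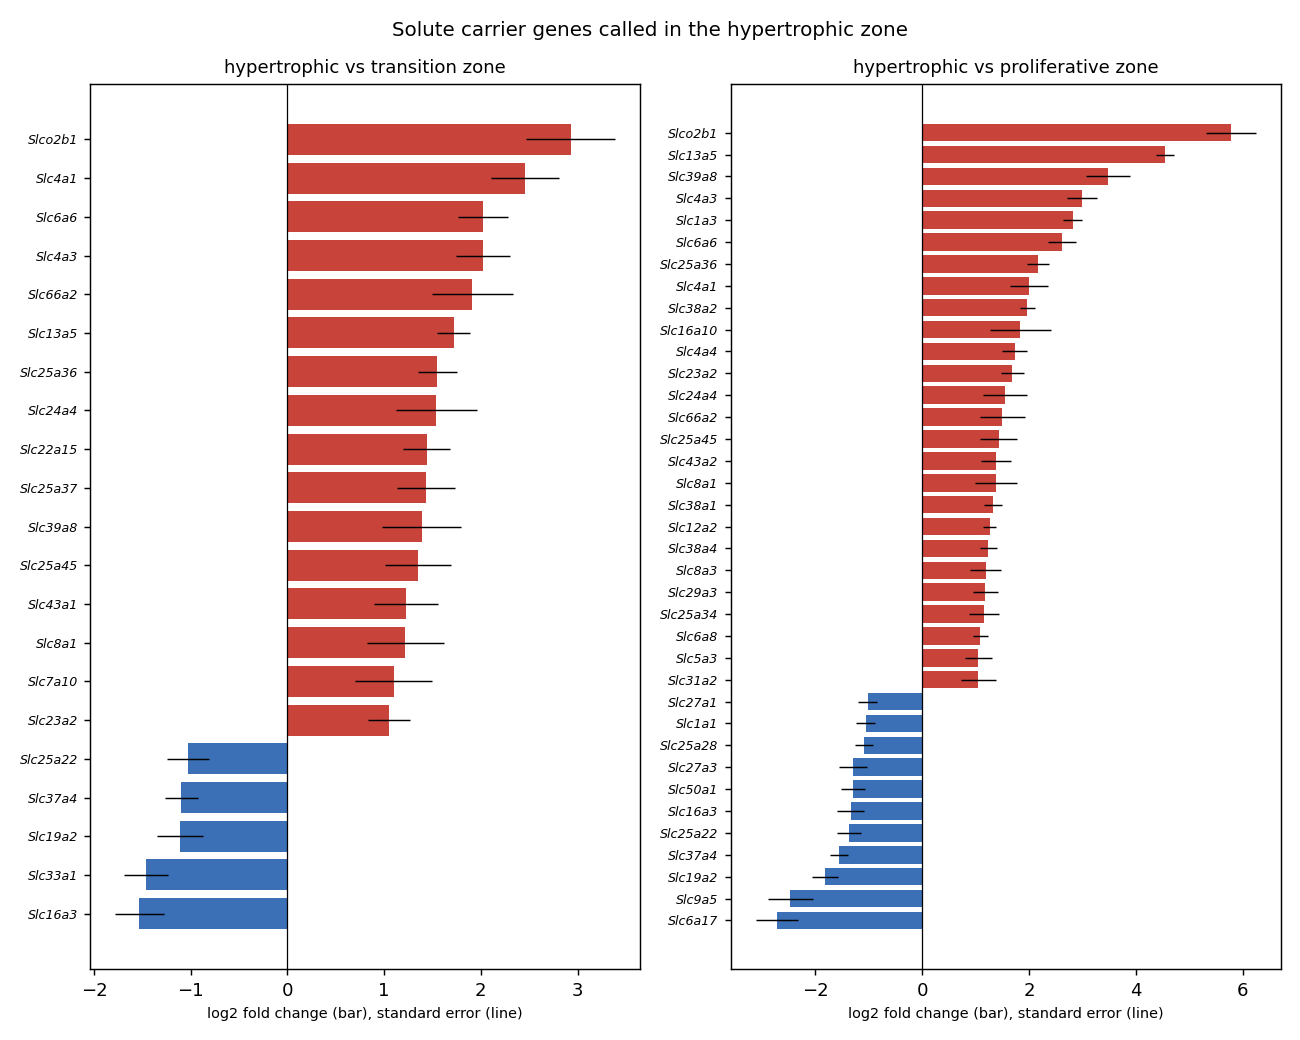
Log2 fold change (bars, from 0) with its standard error (lines) of the carriers called in the hypertrophic zone against the transition zone (21 genes) and against the proliferative zone (37 genes). Slco2b1 has the longest bar in both panels, 2.93 and 5.78, and Slc16a3 and Slc6a17 the longest bars downward, -1.53 and -2.72.

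Carriers work beside pumps and regulators, which were followed through 3 lists. Over all genes, 10.3% were called higher and 8.98% lower in the hypertrophic than in the proliferative zone. Of 12 listed sodium-potassium and calcium pump genes 6 were tested, and 3 were higher and none lower there. One of the 3 was Atp2a1 (1.62), the calcium pump of fast skeletal muscle. Of 5 tested muscle markers, 1 was called higher in the same comparison, Myh3 (3.01, limma adjusted p = 0.00837), and none lower. Acta1 (1.12), Tnni2 (0.54) and Tnnt3 (-0.81) were not called. The part of muscle in the Atp2a1 result was not tested. Atp1b1, a beta subunit of the sodium-potassium pump, rose by 3.13 ± 0.22 into the transition zone (limma adjusted p = 4.13e-10) and by 1.25 ± 0.22 from there to the hypertrophic zone (adjusted p = 0.000183), with means of 2790, 900.3, 445.5, 4019 and 9670 along the zones. Of 22 ABC transporters, which use ATP directly, 14 were tested, and 4 were higher and 1 lower. Abca3 rose by 2.48 ± 0.3 into the transition zone (adjusted p = 1.62e-06) after a difference of -2.67 ± 0.3 between the proliferative and the resting zone (adjusted p = 6.59e-07), and Abca1, the cholesterol exporter, rose by 1.96 ± 0.25 from the proliferative to the hypertrophic zone (adjusted p = 1.18e-06). Of 10 partners and regulators 9 were tested, and 4 were higher and none lower in that comparison. The 4 were Fxyd5 (3.01 ± 0.46, adjusted p = 1.35e-05), Stk39 (2.08 ± 0.18), Nedd4l (1.54 ± 0.25) and Sgk1 (1.06 ± 0.28). Stk39, a kinase that activates Slc12a2, rose by 2.37 ± 0.18 into the transition zone (adjusted p = 2.2e-09), and Emb, a chaperone of monocarboxylate carriers, was 1.63 ± 0.22 higher in the proliferative than in the resting zone (adjusted p = 7.4e-06).

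Markers followed the labelled zones in part. Col10a1, the collagen of hypertrophic cartilage, had a mean of 65530 in the hypertrophic and 36720 in the transition zone, but of 8505 in epiphyseal cartilage beside 822.7 in the resting and 2626 in the proliferative zone. Of 4 resting zone markers, 2 were called higher in resting than in epiphyseal cartilage, among them Sfrp5 with means of 4243 and 788.6. Grem1 went the other way (1787 beside 3074) without a call, and Boc, at 9668 beside 7905, was not called. All 4 were called lower in the proliferative than in the resting zone. None of 4 tested markers of dividing cells was called higher in the proliferative than in the resting zone, all 4 were called lower in the transition than in the proliferative zone, and Mki67 was called 4.06-fold higher in the hypertrophic than in the transition zone. Markers of other cells moved with the hypertrophic zone, in which the carriers had their largest number of calls. Of 7 osteoclast and macrophage markers 6 were tested, and all 6 were called higher there than in the transition and in the proliferative zone. Their summed signal was 13055, 8725, 12321, 84188 and 9998 in the hypertrophic arrays, 1146 to 2060 in the transition zone, 610 to 1400 in the proliferative zone, 1397 to 25320 in the resting zone and 2416 to 64658 in epiphyseal cartilage. The summed osteoblast signal (3 of 5 markers tested) was 29214 to 84321 in the hypertrophic and 4091 to 9284 in the transition zone, the leukocyte signal (4 of 5) 3171 to 13220 beside 659 to 2664, and the endothelial signal (3 of 5) 648 to 2164 beside 150 to 232. The skeletal muscle signal (5 of 6) was highest in the resting zone, at 9527 to 57643, beside 4386 to 11100 in the proliferative zone. Between these zones, in which 9 carriers were called lower, 3 of the 5 muscle markers were called lower too (Tnni2 -2.63, Myh3 -2.94 and Acta1 -1.50), as were 2 of 4 leukocyte markers (S100a8 -1.28 and S100a9 -1.29) and 1 of 6 osteoclast and macrophage markers (Mmp9 -2.67). Their part in the falls of Slc40a1, Slc2a3, Slc16a7 and the other carriers was not tested. No tested marker of these lists had a zone mean of 0. Slc39a8 was highest in the hypertrophic array of animal 4, which had the highest osteoclast and macrophage sum. Without that array, 22 carriers were called against the transition zone, 17 of them among the 21, and 36 against the proliferative zone, 34 of them among the 37. The other 4 hypertrophic arrays still had sums of 8725 to 13055, above those of the transition and proliferative zones. The part of other cells in the hypertrophic calls was not tested.

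**Figure D5:**
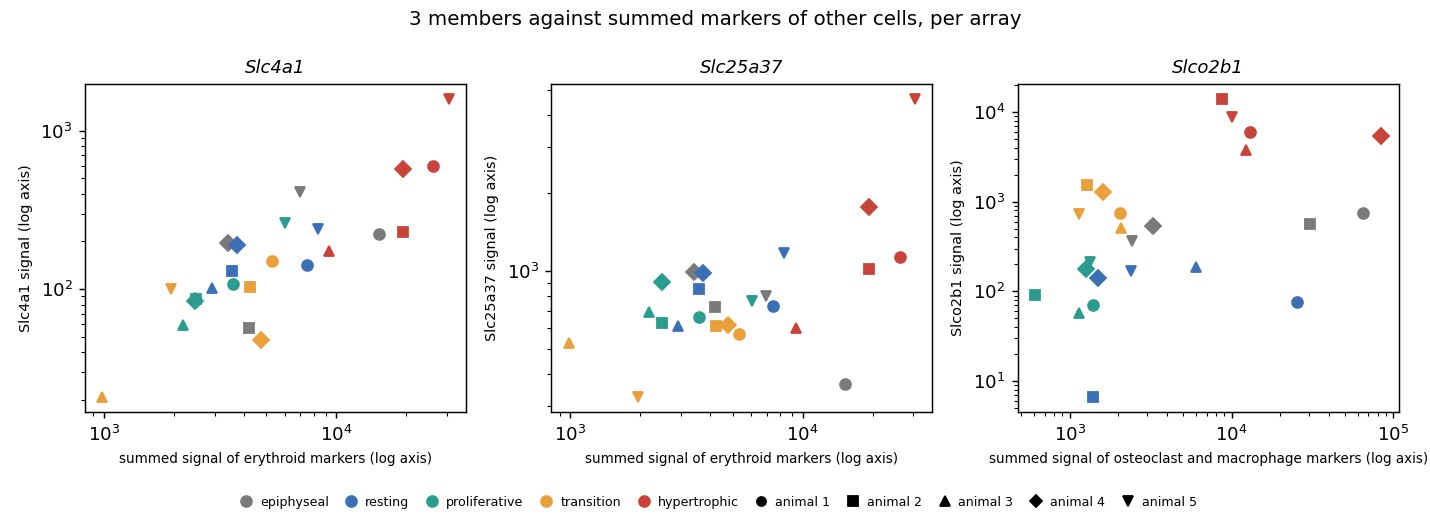
MAS5 signal of Slc4a1 and of Slc25a37 against the summed erythroid marker signal, and of Slco2b1 against the summed osteoclast and macrophage marker signal (log axes), with 1 point per array coloured by zone. The hypertrophic array of animal 5 is highest for Slc4a1 (1591.6) and Slc25a37 (4613), and the hypertrophic array with the highest osteoclast and macrophage sum (84188) has an Slco2b1 signal of 5362.1, inside the range of its zone.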

How the data were processed

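Total RNA of microdissected cartilage from 1-week-old rats was amplified and hybridised to Affymetrix arrays, 1 animal and zone per array. The deposited values are linear MAS5 signal intensities, per the submitters' processing notes, and all arrays share 1 trimmed mean. The version of MAS5, the detection calls and any further filter are not given in the sources used here.

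From these intensities, log2(signal + 16) was taken, which understates the change of dim genes. Control probe sets (57) were left out, and 19213 of 31099 probe sets above their array's median in 4 or more arrays were tested. limma 3.58.1 (R 4.3.3) was fitted to all 24 arrays with the zone and the animal number as a block (15 residual degrees of freedom, eBayes with trend), with Benjamini-Hochberg adjustment over all tested probe sets. The fit was tested on simulated data. Errors of log2 changes are standard errors of the fit. With 4 or 5 arrays a zone, their number limits precision. As a measure of RNA quality, the log2 ratio of 3' to 5' control probe set signal was taken. For actin it averaged 4.03, 4.03, 4.47, 4.46 and 4.31 along the zones from epiphyseal to hypertrophic. The Gapdh ratio averaged 2.91, 2.76, 2.67, 2.57 and 2.96. The part of these ratios in the zone differences, or where probe sets of a gene differ, was not tested. Of the tested probe sets 13956 have 1 gene symbol in the platform annotation, 323 several and 4934 none.

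The labels number the animals in every zone, but whether a number means the same animal in both wordings of the labels is not stated. Deviations from the zone means correlated with a median r of 0.176 over 46 pairs of the same number (-0.142 to 0.36) and of -0.046 over 184 other pairs, and 21 of 24 arrays correlated best with their own number. No pair of arrays was near identical.

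The members, substrate groups, partner and marker lists and motifs were chosen with earlier results of these data known, and the Slc66 family was put into its group after the files were seen. Genes could be named by a rule, and not all that met it are described, Slc22a17 and Slc41a2 among those left out. The rule took the 4 markers and, per comparison, the 12 largest rises and falls among calls moving the same way in all animals. It also took up to 4 members per substrate group with the smallest F-test p, and up to 4 rises and 4 falls of partners per comparison. Alternatives changed the pseudocount (1 or 64), the scaling, the filter, the block, the variance model, the probe set rule, the arrays and the fold threshold.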

Additional observations from a re-analysis of the deposited data

Results flagged for a closer look

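In 9 of the 120 zone groups looked at, for 24 genes, 1 array lay far from the others of its zone by Dixon's test, which flags about 1 in 20 groups by chance. Slc16a7, the lactate and pyruvate importer, stood out in 3 zones, with 186.1 in the epiphyseal array of animal 4 (others 429.3 to 472.1), 105.8 in the proliferative array of animal 5 (others 41.6 to 59.4) and 419.1 in the hypertrophic array of animal 4 (others 22.6 to 128.1). In epiphyseal cartilage Slc39a8 was at 1096.3 in animal 4 (others 654.3 to 710.4), Slc19a2 at 665.3 in animal 5 (others 383.1 to 430.1) and Slc12a2 at 3905.8 in animal 1 (others 2356.7 to 2516.4). Slc5a3 was at 4994.3 in the resting array of animal 4 (others 1857.6 to 2365.2) and Slc4a1 at 261.6 in the proliferative array of animal 5 (others 59.5 to 108.1). Slc9a5 was at 194.6 in the hypertrophic array of animal 4 (others 23.7 to 62.2), the array with the highest osteoclast and macrophage marker sum.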

How the results depend on the processing

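Of the 84 calls of carriers, 51 held in every alternative run for them and 33 were lost in at least 1, and none changed direction. The alternatives given beside a gene are not always all of those that removed its call. Between the proliferative and the resting zone, Slc2a3 was lost in 10 of 19 and Slc66a1 in 7 of 19. Slc8a1 was lost in 9 of 19 between the hypertrophic and the transition zone. For the resting zone against epiphyseal cartilage the 4 calls became 2 without the filter, 2 without the variance trend and 7 by adjusted p alone. With epiphyseal animals 1 and 2 both left out, 4 carriers were called there, 1 higher and 3 lower. Only 1 of them was among the 4 of the main fit. By adjusted p alone the other comparisons gave 27 calls (proliferative against resting), 40 (transition against proliferative), 53 (hypertrophic against transition) and 69 (hypertrophic against proliferative). Arrays scaled to one median gave 19 calls for the transition against the proliferative zone, 9 of them among the 9, and the cause was not tested. Leaving out 1 animal or array at a time gave 1 to 5, 9 to 13, 9 to 13, 16 to 22 and 36 to 41 calls in the 5 comparisons and 82 to 105 carriers passing the F test. Without the block on animals, the pairing of arrays by replicate number, 4, 11, 9, 20 and 37 carriers were called and 91 passed the F test, so no count moved by over 1.5 times. Slc2a3, Slc66a1 (both proliferative against resting) and Slc7a10 (hypertrophic against transition) lost their calls without the block. At low signals, as for Slc16a10, the error of a change was wide (SE 0.57). Carriers not called here that were called under an alternative, such as Slc26a2 and Slc35a5, are given beside their values.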
